A study of Mus musculus with 2 samples.

Results

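The genes described here encode the nuclear subunits of the mitochondrial respiratory chain and of ATP synthase. The rule takes them by gene symbol, and the gene set was proposed with earlier results of these data known. It takes complex I (symbols starting Ndufa, Ndufb, Ndufc, Ndufs or Ndufv, without the Ndufaf assembly factors), complex II (Sdha to Sdhd), complex III (symbols starting Uqcr, and Cyc1), cytochrome c (Cycs), complex IV (symbols starting Cox4i, Cox5, Cox6a, Cox6b, Cox6c, Cox7 or Cox8) and complex V (symbols starting Atp5), with pseudogenes left out. The rule found 88 of the 25004 genes in the tables, 39 of them in complex I, 4 in complex II, 9 in complex III, 1 for cytochrome c, 18 in complex IV and 17 in complex V. Both groups were 12 weeks old, of strain FvB/N, and each was 1 library from 3 hearts combined. The control group was non-transgenic, and the other carried the cMyBP-C delta C0-C1f transgene, a form of the sarcomere protein cMyBP-C. The labels name neither the promoter nor the line of the transgene. Each value below describes these 2 libraries, with no replicate check and no test of genotype. Paired values are given with the control library first and the transgenic library second.

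The respiratory chain passes electrons from NADH (complex I) and succinate (complex II) through complex III and cytochrome c to oxygen at complex IV, and complexes I, III and IV pump protons across the inner mitochondrial membrane. ATP synthase, complex V, uses the returning protons to make ATP. Heart muscle depends on this process for nearly all of its ATP, and its cytochrome oxidase contains muscle forms of several subunits. The mitochondrial genome encodes some core subunits, and these were not analysed here.

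The counts were few, with 170543 and 190824 in all, so that 1 count stood for 6.22 and 4.94 CPM (normalised counts per 1000000). Cardiomyocyte markers were present, with 5149 and 8354 counts over 12 genes, led by Myl2 with 2405 and 3916. The defining markers Tnnt2 and Myl3 had no count in either library and Myh6 had 0 and 1. Tnnt2, Myl3 and Myh6 each have more than 1 RefSeq transcript accession, as do some markers of the other lists. Such genes had a count less often (next paragraph), so their values are not read as low expression. Adipocyte markers summed to 0 and 1 counts and erythroid markers to 0 and 0, while immune markers summed to 14 and 20 and skeletal muscle markers to 8 and 12. Whether more cardiomyocytes or more RNA per cell lies behind a higher count cannot be told apart in whole hearts. The kit kept strand origin, but the strand setting of the counting is not given in the sources used here. A count at a gene that overlaps another on the opposite strand could therefore not be assigned with certainty. Such genes with at least 20 counts held 69.6% and 65.2% of all counts. The effect of the strand setting on other genes and on the totals was not tested.

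Of the 88 genes, 64 had a count in at least 1 library and 24 had none. The share with a count differed by how many RefSeq transcript accessions a gene had in the tables. Of 59 genes with 1 accession 54 had a count (91.5%), against 10 of 29 genes with more than 1 accession (34.5%). Genes with 1 accession held 3769 and 5767 counts, and those with more held 48 and 61. Over all genes in the tables the same shares were 41.1% and 14.9%. Among the genes with no count were Ndufs1, which has 4 accessions, and Atp5j, which has 7. The part of the counting per accession in these values was not tested, so they are not read as low expression. For a gene with 1 accession, a count of 0 allows up to 3 counts, which is 18.6 CPM in the control and 14.8 CPM in the transgenic library, by counting error alone.

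**Figure D1:**
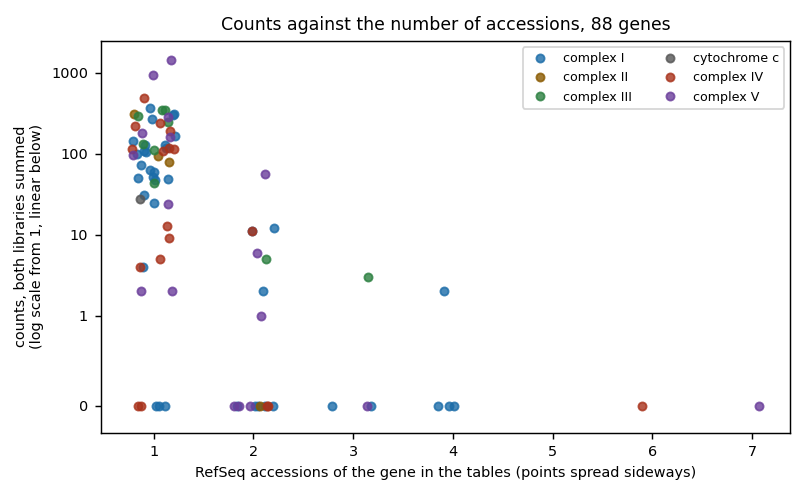
Counts of each of the 88 genes, both libraries summed (y axis, log scale from 1 and linear below), against the number of RefSeq accessions of the gene (x axis), with 1 point a gene coloured by complex. Genes with 1 accession reach 1442 counts, and no gene with more than 1 accession exceeds 56.

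The ratio of the transgenic to the control library was taken on TMM-normalised counts, with an exact 95% interval for counting error (Clopper-Pearson). It was given where either library exceeded 3 counts, which held for 56 of the 88. Most of the 56 were counted higher in the transgenic library, though by little. The ratio was above 1 in 42 and below 1 in 14, and the share above 1 was 75.0% against 51.7% of all 4236 genes with a ratio. A ratio of at least 1.5 with an interval above 1 was found for 9 genes, or 9 of 56 against 3.42% of all genes with a ratio. These were Ndufa3, Ndufa4, Ndufb6, Sdhd, Cox6b1, Cox7a1, Cox7a2, Cox8b and Atp5h. None was at least 1.5-fold lower with an interval below 1, against 5.90% of all genes with a ratio. The median log2 ratio of the 56 was 0.32, beside 0.05 for all genes with a ratio. It stayed positive under each other scaling, from 0.29 with upper-quartile factors to 0.49 with total counts alone. The difference of 0.27 from all genes cannot change with the scaling, which shifts all genes alike.

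Of the 48 members with at least 20 counts over both libraries, 39 had a ratio above 1 (81.2%), against 44.3% of 1795 such genes in the tables. In that range 8 were called higher, against 5.46% of all genes, and none lower, against 10.4%. Genes overlapped by an opposite-strand exon made up 962 of the 1795 genes and 143 of their 187 lower calls, but 17 of the 48 members. The share above 1 was 32.3% of such genes (88.2% of such members). It was 56.7% (79.2% of members) with such an exon within 5 kb only, and 62.3% (71.4% of members) with none that near. With the interval alone and no fold threshold, a rule added after the values were seen, 14 of the 56 lay above 1, against 3.94% of all genes with a ratio. By that rule Ndufa10 was the 1 member below 1, against 8.43%.

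Over all 88 genes the counts came to 3817 and 5828. Their share of all counts was 2.24% (95% binomial interval 2.17 to 2.31) and 3.05% (2.98 to 3.13), and the ratio of the normalised sums was 1.21 (1.17 to 1.26). By complex, the ratio of sums was 1.22 (1.13 to 1.32) for complex I, 1.20 (0.9995 to 1.45) for complex II, 1.07 (0.968 to 1.19) for complex III, 1.28 (1.16 to 1.42) for complex IV and 1.25 (1.17 to 1.35) for complex V. The intervals of complexes I, IV and V lay above 1, and those of complexes II and III held 1. The difference between complexes was not tested. Summed cardiomyocyte markers had a ratio of 1.29 (1.25 to 1.34) in the same libraries and fibroblast markers one of 0.596 (0.359 to 0.982). Smooth muscle and pericyte markers had a ratio of 1.54 (1.21 to 1.98) and endothelial markers one of 0.920 (0.766 to 1.10). Rgs5 (65 and 157 counts) held most of the smooth muscle and pericyte sum. Apart from it, Tagln lay at 0.738 (0.416 to 1.31) and Acta2 at 1.59 (0.552 to 5.16). Among cardiomyocyte markers with a ratio, Ckm (0.921) and Mybpc3 (0.920) lay below 1, and Myl2, Actc1, Tnni3, Tnnc1 and Nppa above. The fibroblast sums were 40 and 30 counts, of which Col3a1 held 23 and 14. The part of these marker differences in the higher counts of respiratory genes was not tested.

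**Figure D2:**
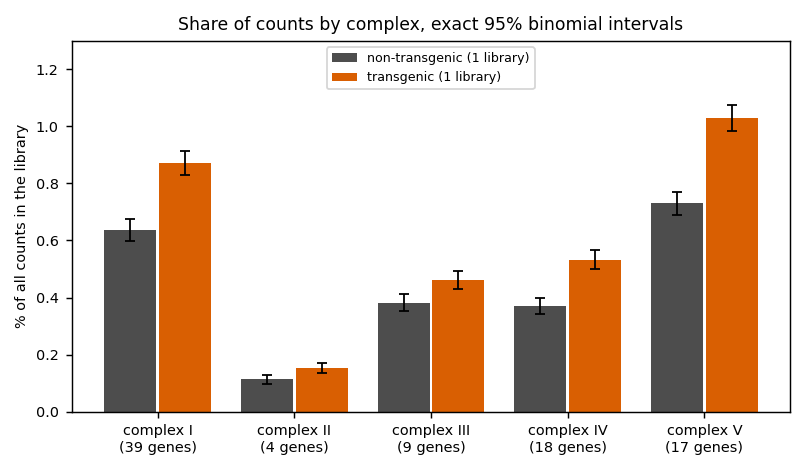
Share of all counts of a library (y axis, percent) held by the genes of each complex (x axis), with grey bars for the control and orange bars for the transgenic library and exact 95% binomial intervals, which cover counting error only. The orange bar is higher in each of the 5 complexes, and the intervals are apart for each of them, least so for complexes II and III. These are shares of raw library totals, without TMM scaling. On TMM-normalised counts the ratio intervals of complexes II (0.9995 to 1.45) and III (0.968 to 1.19) held 1.

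**Figure D3:**
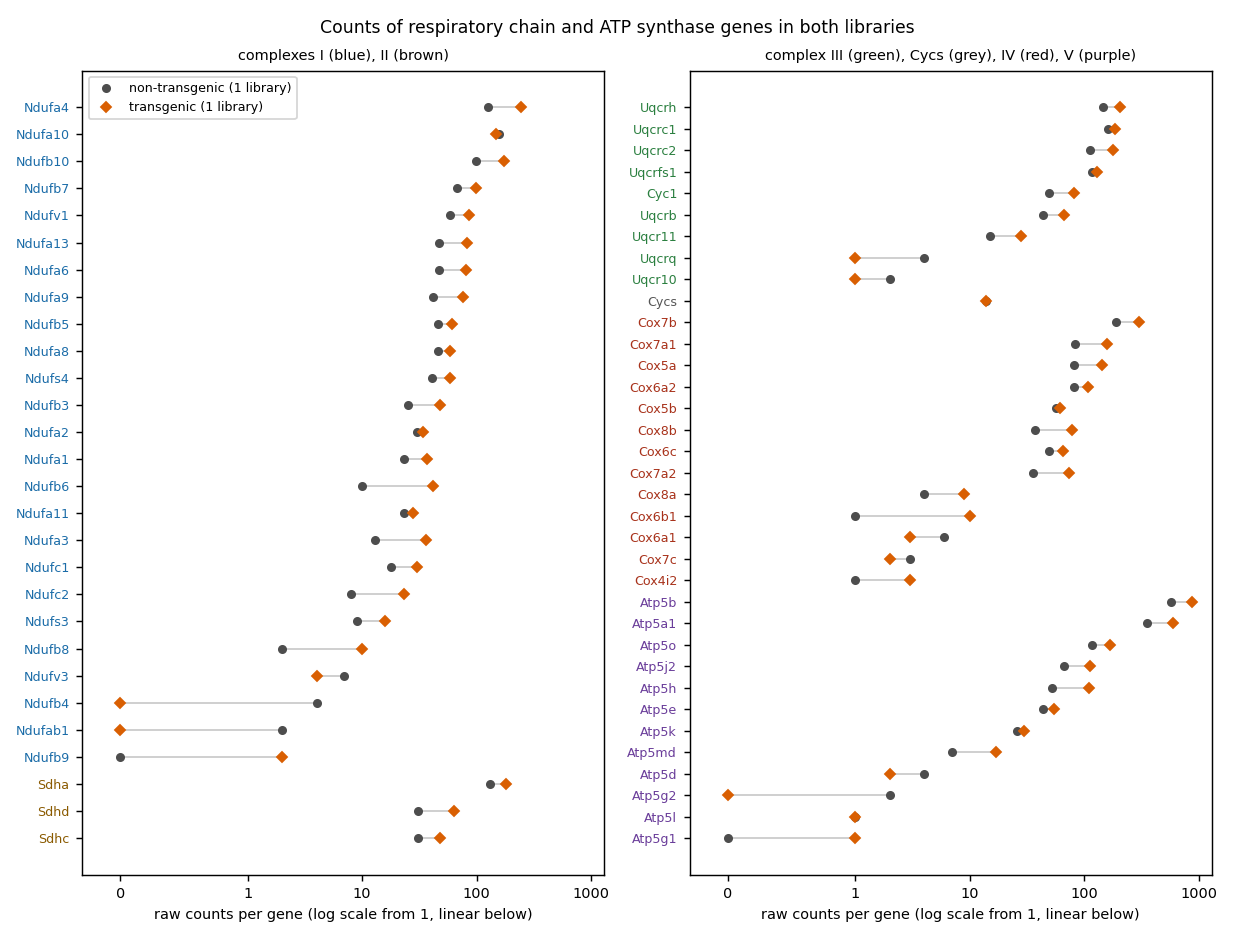
Raw counts (x axis, log scale from 1 and linear below) of the genes with a count that are reported by name, in the control (dark circles) and the transgenic library (orange diamonds), grouped by complex. Counts run from 0 to 867, and the diamond lies to the right for each gene shown with more than 20 counts in all, except Ndufa10 and Cycs. Raw counts are not scaled for library size, and the effective sizes by TMM were 160858 and 202313. After scaling, 9 of the 48 members with at least 20 counts lay below a ratio of 1.

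In complex I, the NADH dehydrogenase, 24 of 39 genes had a ratio, of which 19 were above 1 and 5 below, with a median log2 ratio of 0.38. Complex I has a core that carries the flavin and the iron-sulfur clusters, surrounded by accessory subunits. The 3 genes called higher were outside this core, as were 21 of the 24 genes with a ratio. Ndufb6, of the membrane arm (chromosome 4, 40270591 to 40279421, minus strand, GRCm38), had 10 and 42 counts and a ratio of 3.34 (1.65 to 7.46). Ndufa3 (chromosome 7, 3617373 to 3620327, plus strand) had 13 and 36, a ratio of 2.20 (1.14 to 4.52). Both are overlapped on the opposite strand, Ndufb6 by Smim27 (257 bases, 3 and 6 counts) and Ndufa3 by Tfpt (4 bases, no count). They were the 2 overlapping members among the 9 called higher. Ndufa4 (chromosome 6, 11900292 to 11907497, minus strand) had 127 and 246, a ratio of 1.54 (1.24 to 1.92). Its product was first described in complex I and was later placed in complex IV, and it is kept here by its symbol. Ndufa4 had the most counts of the complex I symbols and the narrowest interval of the complex I genes called higher.

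Ndufb10, with 98 and 175 counts, had a ratio of 1.42 (1.10 to 1.84), short of 1.5-fold but with an interval above 1. Ndufb8 at 2 and 10 counts and Ndufc2 at 8 and 23 had ratios of 3.98 and 2.29 with intervals that held 1. In the other direction Ndufa10, an accessory subunit of the membrane arm (chromosome 1, 92439010 to 92473860, minus strand), had 158 and 148 counts and a ratio of 0.745 (0.591 to 0.938). It was the only member with an interval below 1, and no opposite-strand exon lies within 5 kb of it.

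Core subunits of complex I were thinly covered. Ndufs1, Ndufs7, Ndufs8 and Ndufv2, each with more than 1 accession, had no count. Ndufv1, which binds NADH and the flavin, had 59 and 85, a ratio of 1.14 (0.812 to 1.62), and Ndufs3 had 9 and 16. Both lay above 1 with intervals that held 1.

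The other complex I genes with a ratio above 1 all had intervals that held 1. Among them, by counts, were Ndufb7 (68 and 98), Ndufa13 (47 and 82), Ndufa6 (47 and 81), Ndufb5 (46 and 61) and Ndufa8 (46 and 58). The list went on with Ndufa9 (42 and 76), Ndufs4 (41 and 58), Ndufb3 (25 and 48), Ndufa1 (23 and 37) and Ndufc1 (18 and 30). Ndufa8, at a ratio of 1.003, went to 0.981 with upper-quartile factors. Ndufa2 (30 and 34), Ndufa11 (23 and 28), Ndufv3 (7 and 4) and Ndufb4 (4 and 0) lay below 1, though Ndufa11 and Ndufa2 came out above 1 on total counts, as did Ndufa11 by DESeq2 scaling. Ndufab1, the mitochondrial acyl carrier protein, had 2 and 0 counts and Ndufb9 had 0 and 2. No count was found for Ndufa4l2, Ndufa5, Ndufa7, Ndufa12, Ndufb2, Ndufb4c, Ndufb11, Ndufs5 and Ndufs6. Of these, Ndufs5, Ndufa4l2 and Ndufb4c had a single accession.

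Complex II, succinate dehydrogenase, also belongs to the citrate cycle. Its membrane anchor gene Sdhd (chromosome 9, 50596357 to 50603812, minus strand) had 31 and 64 counts and a ratio of 1.64 (1.05 to 2.61), and was called higher. The other anchor gene, Sdhc, had 31 and 48, giving 1.23 (0.768 to 2.0). Sdha, the flavoprotein that oxidises succinate, had 131 and 180, a ratio of 1.09 (0.868 to 1.38). All 3 lay above 1, with a median log2 ratio of 0.30, but only Sdhd beyond its counting error. Sdhb, the iron-sulfur subunit, had no count and has 2 accessions.

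Complex III, the cytochrome bc1 complex, stood nearest to a ratio of 1. None of its 8 genes with a ratio was called higher or lower, 5 lay above 1 and 3 below, and the median log2 ratio was 0.20. Uqcrh, the hinge protein gene, had 147 and 204 counts and a ratio of 1.10 (0.888 to 1.37). Uqcrc1 and Uqcrc2 encode the large core proteins. Uqcrc1 had 160 and 187, a ratio of 0.929 (0.748 to 1.15), which became 1.002 by DESeq2 scaling and 1.04 on total counts. Uqcrc2 had 113 and 180, a ratio of 1.27 (0.995 to 1.62). Uqcrfs1, the Rieske iron-sulfur protein gene, had 117 and 129, a ratio of 0.877 (0.677 to 1.14), and Cyc1, for cytochrome c1, had 49 and 82, a ratio of 1.33 (0.923 to 1.94). The electron-carrying subunits thus lay on either side of 1, each within counting error. Uqcrb had 44 and 66 counts, Uqcr11 had 15 and 28, Uqcrq 4 and 1, and Uqcr10 2 and 1. Cycs, the mobile electron carrier, had 14 and 14, a ratio of 0.795 (0.351 to 1.80).

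Complex IV, cytochrome c oxidase, held 4 of the 9 genes called higher. Of 11 genes with a ratio 9 lay above 1 and 2 below, with a median log2 ratio of 0.46. Cox8b (chromosome 7, 140898945 to 140900446, minus strand), a muscle form, had 37 and 78 counts and a ratio of 1.68 (1.12 to 2.55). Cox7a1 (chromosome 7, 30184144 to 30186078, plus strand), also a muscle form, had 83 and 158, a ratio of 1.51 (1.15 to 2.0). Cox7a2 (chromosome 9, 79755361 to 79759878, minus strand), the form found in most tissues, had 36 and 73, a ratio of 1.61 (1.07 to 2.48). Cox6b1 (chromosome 7, 30616861 to 30626151, minus strand), on the side facing cytochrome c, had 1 and 10 counts, for a ratio of 7.95 (1.13 to 345). Both forms of subunit 7a were called higher, but with upper-quartile factors Cox7a1 came to 1.48 and was no longer called, which left 8 members called higher. The value of Cox6b1 rested on 11 counts of a gene with 2 accessions.

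Further complex IV genes were counted well. Cox7b (chromosome X, 106015700 to 106022450, plus strand) had the most, 190 and 304, a ratio of 1.27 (1.06 to 1.53). Cox5a, opposite Gm26631, had 82 and 142, a ratio of 1.38 (1.04 to 1.83). Both had intervals above 1 without reaching 1.5-fold. Cox6c had 49 and 65 counts, for a ratio of 1.06 (0.717 to 1.56), and Cox5b had 57 and 61, a ratio of 0.851 (0.583 to 1.24). Cox7c had 3 and 2 counts and Cox4i2 had 1 and 3. Cox4i1, Cox6b2, Cox7a2l, Cox7b2 and Cox8c had no count. Of these Cox4i1, the main form of subunit 4 in heart, Cox6b2 and Cox7a2l each have more than 1 accession.

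Muscle forms made up most of the counts of subunits 6a, 7a and 8 in both libraries. Cox6a2, the muscle form of subunit 6a, had 82 and 109 counts, for a ratio of 1.06 (0.786 to 1.42). Cox6a1, the form of most other tissues, had 6 and 3, a ratio of 0.398 (0.0643 to 1.86). The muscle form held 93.2% (85.7 to 97.5) of the pair in the control and 97.3% (92.4 to 99.4) in the transgenic library. Cox8a had 4 and 9 counts, a ratio of 1.79 (0.499 to 7.95). For Cox8b against Cox8a the muscle form held 90.2% (76.9 to 97.3) and 89.7% (81.3 to 95.2). For Cox7a1 against Cox7a2 it held 69.7% (60.7 to 77.8) and 68.4% (62.0 to 74.3). The intervals of the 2 libraries overlapped in all 3 pairs. Per kilobase of transcript, the level of Cox7a1 was 1313 and 1987 CPM, and that of Cox7a2 was 340 and 548. On the same scale the level of Cox6a2 was 750 and 792, against 65.3 and 26.0 for Cox6a1, and that of Cox8b was 639 and 1071, against 45.2 and 80.9 for Cox8a. For subunits 4 and 6b, each pair had 10 counts or fewer in a library, too few to compare forms.

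Complex V was led by the subunits of its catalytic head. Atp5b, the catalytic beta subunit (chromosome 10, 128083273 to 128090391, plus strand), had the highest count of all members, 575 and 867, a ratio of 1.20 (1.08 to 1.33). Atp5a1, the alpha subunit, had 352 and 602, a ratio of 1.36 (1.19 to 1.55), and is overlapped over 129 bases by Haus1, which had no count. Both had narrow intervals above 1, and both stayed under 1.5-fold. Together with Atp5h they made up the 3 complex V genes with an interval above 1. Atp5h, a subunit of the peripheral stalk (chromosome 11, 115415689 to 115419962, minus strand), had 52 and 110, a ratio of 1.68 (1.20 to 2.39), and was the 1 gene of complex V called higher. Per kilobase, the level of Atp5b was 1866 and 2237 CPM and that of Atp5a1 was 886 and 1204.

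The remaining complex V genes varied more. Atp5o, which joins the stalk to the head and lies opposite Gm15976, had 116 and 168 counts, for a ratio of 1.15 (0.903 to 1.47). Atp5j2 had 66 and 113, a ratio of 1.36 (0.996 to 1.87), and Atp5md had 7 and 17, a ratio of 1.93 (0.761 to 5.51). Atp5e, the epsilon subunit, with 44 and 54, and Atp5k with 26 and 30 lay at 0.976 and 0.917, and each came out above 1 on total counts, as did Atp5e by DESeq2 scaling. The reference holds several pseudogenes of Atp5k, which may share its reads, so its count is uncertain. Atp5d, the delta subunit, had 4 and 2. The genes for the proton-carrying ring, Atp5g1 (0 and 1), Atp5g2 (2 and 0) and Atp5g3 (0 and 0), were barely counted, as was Atp5l (1 and 1). Atp5c1, Atp5j, Atp5mpl and Atp5pb had no count, each with more than 1 accession. Of 9 genes with a ratio 6 lay above 1 and 3 below, with a median log2 ratio of 0.26.

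**Figure D4:**
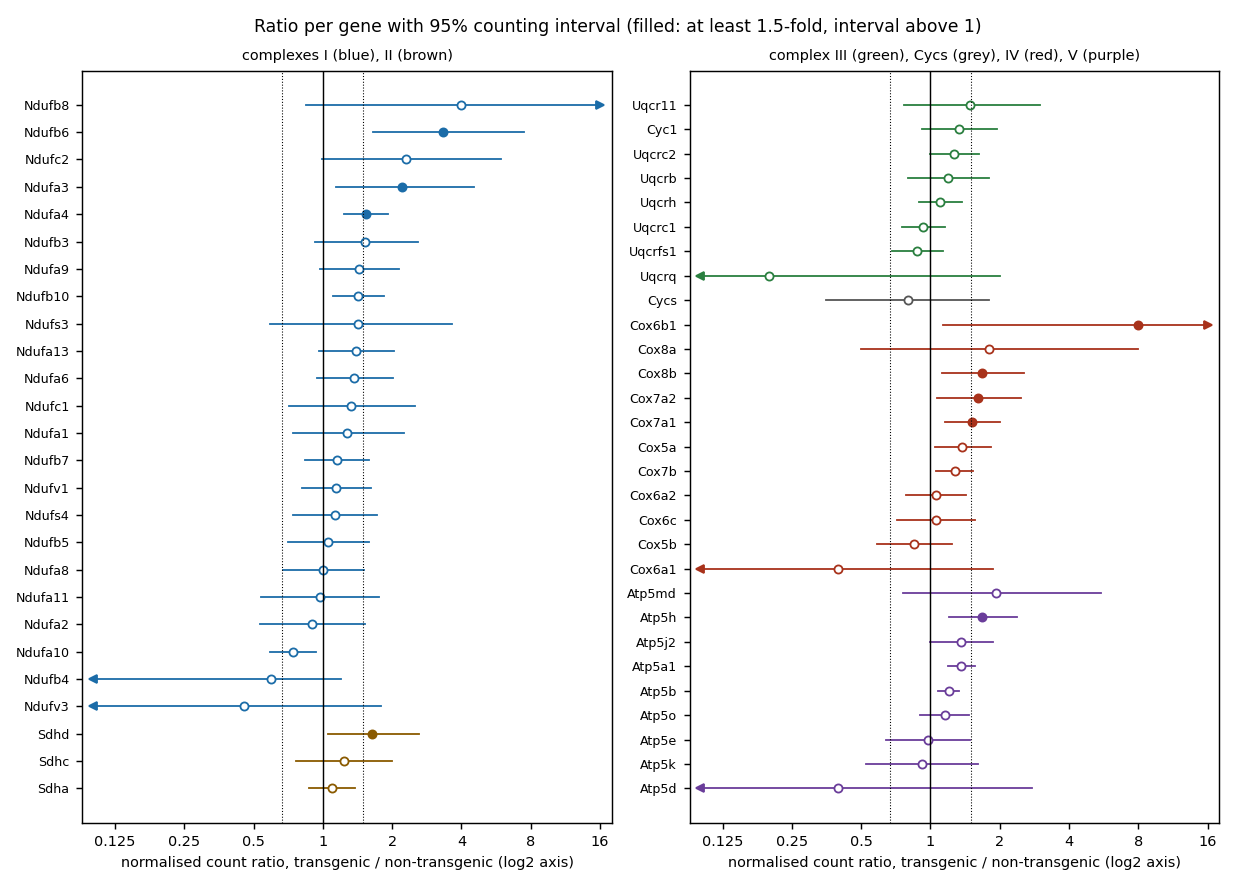
Normalised count ratio, as transgenic over control (x axis, log2 scale), of the genes with a ratio that are reported by name, with exact 95% counting intervals, coloured by complex; arrows mark intervals beyond the axis and dotted lines a 1.5-fold difference either way. Filled points are the 9 genes called higher, and most open points have intervals that hold 1.

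The members were also set beside genes of the same position relative to the opposite strand. Of the 88 genes, 28 were overlapped by an opposite-strand exon, 38 had such an exon within 5 kb only, and 22 had none that near. Among genes with at least 20 counts, the median log2 ratio of 17 overlapping members was 0.34, beside -0.24 for all 962 overlapping genes. It was 0.32 for 24 members with a nearby gene, beside 0.07 for 462 genes, and 0.41 for 7 members with neither, beside 0.17 for 353 genes. By summed counts of the same genes, overlapping members had a ratio of 1.27 (1.18 to 1.37), beside 0.833 for all genes of that class, and members with a nearby gene had one of 1.23, beside 1.04. Members with neither had a ratio of sums of 0.989 (0.864 to 1.13), below the 1.05 (1.03 to 1.07) of all such genes, and their interval held 1. The median and the sum thus lay on opposite sides of all genes in the class where no opposite-strand gene is near. Ndufa10 and Uqcrfs1, both below 1, held most of the counts of its 7 members.

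**Figure D5:**
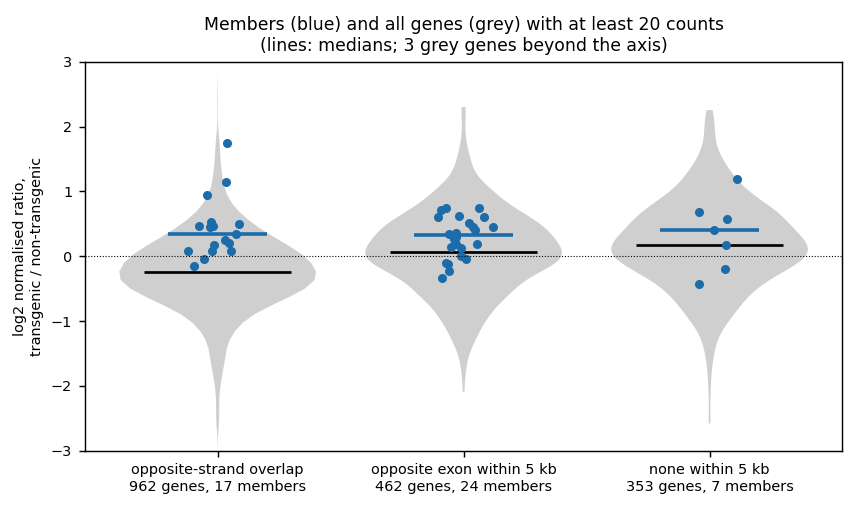
Log2 ratio of the transgenic to the control library (y axis), of genes with at least 20 counts in 3 classes by position of genes on the opposite strand (x axis), with grey shapes and black lines for all genes and their median and blue points and lines for the members and theirs; 3 grey genes lie beyond the axis. The blue medians lie between 0.32 and 0.41, the black ones between -0.24 and 0.17.

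Of 10 opposite-strand genes with a ratio, 4 lay above 1 and 6 below. The 28 overlapping members formed 32 pairs with a gene on the opposite strand, and 24 of these partners were in the tables. The partner had the higher count in 8 pairs in the control library and 9 in the transgenic one. In 7 pairs both genes had a ratio. In 4 of them the member lay above 1 and the partner below, and in 3 both lay above 1. Pdzd9, opposite Uqcrc2 over 504 bases, had 419 and 383 counts, for a ratio of 0.727 (0.631 to 0.837). Taf5, opposite Atp5md over 16 bases, had 205 and 231, a ratio of 0.896 (0.739 to 1.09). Itgad, an integrin gene opposite Cox6a2 over 70 bases, had 45 and 146, a ratio of 2.58 (1.84 to 3.69). Gabpa, opposite Atp5j over 175 bases, had 70 and 41, a ratio of 0.466 (0.309 to 0.694), while Atp5j had no count. Which strand these reads came from was not tested.

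Other genes of mitochondrial energy metabolism were set beside the subunits. Carriers and enzymes around the chain came first, with 8 genes with a ratio among 12 for electron entry and ADP/ATP exchange. Of the 8, 3 were at least 1.5-fold higher and none lower, beside 3.42% and 5.90% of all genes with a ratio. The share above 1 was 87.5%, against 51.7% of all genes with a ratio, and the median log2 ratio was 0.28. Slc25a5, an ADP/ATP carrier, had 5 and 30 counts, for a ratio of 4.77 (1.83 to 15.7). Slc25a4, another ADP/ATP carrier with far more counts (444 and 889), had a ratio of 1.59 (1.42 to 1.79). Vdac2, a channel of the outer membrane overlapped by Comtd1 on the opposite strand, had 24 and 51, a ratio of 1.69 (1.02 to 2.87). Of 10 citrate cycle genes with a ratio among 14, 80.0% lay above 1, with a median of 0.12. By the same rule 1 was higher and none lower. The 1 was Dlst, of the oxoglutarate dehydrogenase complex, with 34 and 80 counts, for a ratio of 1.87 (1.24 to 2.88). The 56 members had a median of 0.32 and a share above 1 of 75.0%, and the difference between lists was not tested.

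Assembly factors of the complexes had few counts. Of 59 listed, 56 were in the tables and 29 had a ratio, with 72.4% of these above 1 and a median log2 ratio of 0.48. None of the 29 was at least 1.5-fold higher, 1 was lower and 28 were neither. Over all genes with a ratio 3.42% were higher and 5.90% lower. The assembly factor called lower was Cmc1, a factor for cytochrome oxidase, with 36 and 26 counts, for a ratio of 0.574 (0.333 to 0.978). Of 17 regulators of mitochondrial biogenesis 7 had a ratio, 3 above 1 and 4 below, with 1 called lower and none higher. The 1 was Gabpa, the transcription factor gene already described opposite Atp5j. The median of -0.25 was the value of Twnk, which had 493 and 522 of the list's 647 and 674 counts. Like Esrra, Gabpa and Tfb1m, Twnk is overlapped on the opposite strand. All overlapping genes with at least 20 counts had a median of -0.24. Ppargc1a, Ppargc1b, Nrf1 and Ppara had no count, and each has more than 1 accession.

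The members' promoters were searched for the letters of factors known to act on respiratory genes. NRF1 and the ETS factor GABPA are background knowledge for many of these promoters, as are ERR receptors and YY1. RefSeq promoter windows on GRCm38.p6, from 250 bases before to 50 bases after the start, were matched for 70 of the 88 genes by symbol. All 9 genes called higher had a window. The stretches shown are those of genes called higher that hold NRF1-like or ETS-like letters before the start of both the RefSeq and the GENCODE gene. Capitals mark those letters, read 5′ to 3′ on the gene's strand.
Sdhd, chr9:50603869-50603948, minus strand: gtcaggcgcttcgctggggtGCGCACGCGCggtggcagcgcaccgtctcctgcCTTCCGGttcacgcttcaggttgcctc
Atp5h, chr11:115420031-115420080, minus strand: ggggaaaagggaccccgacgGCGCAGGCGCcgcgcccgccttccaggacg
Ndufb6, chr4:40279627-40279671, minus strand: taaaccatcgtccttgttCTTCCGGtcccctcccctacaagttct

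NRF1-like letters (GCGC, any 2 bases, then GCGC, on either strand) stood in the windows of 19 of 70 members (27.1%), against 7.0% of 27025 genes with a window. Among those with a ratio they stood in 11 of 46 members (23.9%), against 14.9% of genes. ETS-like letters, CCGGAAG on either strand (CTTCCGG on the other), stood in 17 of 70 (24.3%), against 9.93%, and among those with a ratio in 13 of 46 (28.3%), against 20.3%. Both kinds were present in 4 of the 75 windows of members, and they overlapped in none. ERR-like letters, CAAGGTCA, stood in 4 (5.71%), against 1.76% of all genes, and among those with a ratio in 1 of 46 (2.17%), against 1.16%. YY1-like letters, CCATNTT, stood in 20 (28.6%), against 18.2%, and among those with a ratio in 11 of 46 (23.9%), against 17.2%. Of the 9 genes called higher 2 had NRF1-like letters (Sdhd and Atp5h) and 4 had ETS-like letters (Ndufb6, Sdhd, Cox6b1 and Atp5h). These are matches of letters in a window and show no binding. The window of Sdhd held 3 of the 4 kinds of letters searched.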

How the data were processed

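Strand-keeping libraries were made from heart RNA after poly-T selection, per the labels' protocols. The authors deposited whole-number, unnormalised counts for each RefSeq transcript accession. STAR, HTSeq and mm10 are listed in the submitters' processing notes. Tool versions and the strand setting: not given in the sources used here.

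Of 41449 accessions 41252 were named from RefSeq genes and 99 from GENCODE M21, and 98 stayed unnamed with 1.81% and 1.66% of the counts. Counts were summed per gene. TMM factors (0.943 and 1.06) came from edgeR 4.0.16 in R 4.3.3. Its quasi-likelihood test needs replicates and was not run. Ratios were given where either library exceeded 3 counts, with a 0 set to 3 counts. A gene was called at 1.5-fold with the interval on the same side of 1. Intervals cover counting error only. Strand classes used GENCODE exons on GRCm38 with at least 1 bp of overlap. The calculations were tested on simulated counts. The scaling was also done with size factors of DESeq2 1.42.0, upper-quartile factors and total counts, and alternatives included other filters, folds and member subsets. Python 3.11.15 with scipy 1.17.1 was used.

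Ratios are given in full for called genes, the 3 most counted genes of each complex, pairs of forms of cytochrome oxidase subunits, up to 2 genes of each related list and opposite-strand genes with at least 100 counts; a few more were named after their values were seen. An item is not reported here by name, though counts and sums over all members include it. The members and lists were chosen with earlier results of these data known. Sample columns left unused numbered 0.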

Additional observations from a re-analysis of the deposited data

How the results depend on the processing

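With 1 library per group no library could be left out, and no difference has a replicate check. No paired analysis was possible because each group holds a single library. The number of members at least 1.5-fold higher, 9, became 18 with total counts alone, 14 with the fold alone, 14 with the interval alone (chosen after seeing the data) and 3 at 2-fold. It was 8 with upper-quartile factors, where Cox7a1 was lost. The number at least 1.5-fold lower, 0, became 5 with the fold alone, and 1 lay below 1 with the interval alone. Of 42 members above a ratio of 1, 27 of 38 remained where those with an overlapping gene were left out. The complex V median log2 ratio of 0.26 moved to 0.43 with total counts alone and 0.44 for genes with 1 accession. The median of complex III, 0.20, ranged from 0.02 to 0.37 over all settings. Ratios of summed counts with total counts alone were 1.37 for complex I, 1.20 for complex III, 1.44 for complex IV and 1.41 for complex V, which was 1.35 with DESeq2 size factors. Whether the intervals of the summed ratios of complexes II and III held 1 depended on the scaling. The all-gene median log2 ratio moved by 0.11 under DESeq2 scaling and by 0.17 on total counts. The other 86 alternative values of these counts, medians and sums kept their direction and stayed within counting error or 1.5 times the count. Few counts leave wide intervals, as in Cox6b1, where the interval ran from 1.13 to 345.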
